A study of Mus musculus with 39 samples.

Results

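The 8 genes Wt1, Tcf21, Bnc1, Msln, Upk3b, Krt8, Krt18 and Krt19 were followed over all 39 arrays of a diet time course in mouse brown fat. They were chosen by their symbols from 29411 gene symbols on the array, and selected on measured values: an earlier reading of these data had found them high on the LFC Day 10 and HFC Week 12 arrays. Their elevation on those arrays is therefore given as a description and was not tested. RNA came from C57BL/6J mice, weaned at 3 to 4 weeks of age and given a low fat diet with 10% of its calories from fat (LFC, 10 arrays) or a high fat, high sucrose diet with 60% (HFC, 11 arrays). A further 3 groups received the high fat diet with the plant formulation KAL, in doses of 5 µg (HF5), 20 µg (HF20) or 75 µg (HF75), on 6 arrays each. Each array held 1 diet at 1 time label between Day 1 and Week 18, so no diet and time was repeated. The KAL groups began at Week 3, and LFC had no array at Week 6. The labels describe the cells as macrophages infiltrating brown fat, taken with the stromal vascular cells, which are the cells left when the fat cells are removed. The labels name no single animal for an array, and they give 5 animals killed per group at each interval. The array of HF20 at Week 12 is labelled HF20 in its title and by the high fat diet alone in its characteristics. The LFC array of Day 1 is titled LFB, and its characteristics give the low fat diet.

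The mesothelium is the flat epithelium that covers the body cavities and the organs inside them, visceral fat pads included. Interscapular brown fat lies under the skin of the back and has no such cover. Mesothelial cells carry keratins of simple epithelia together with surface proteins such as mesothelin and uroplakin 3B, and they keep transcription factors of the embryonic cavity lining, among them Wt1. Krt8, Krt18 and Krt19 are made by nearly all simple epithelia, glands and ducts included, so these 3 genes do not mark mesothelium alone.

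A level below is the log2 processed signal of a probe minus the log2 of the 75th percentile of its array, so that 0 is the brightness of the 75th percentile. Krt8 had 2 probes and the other members 1 each, and the probe with the higher mean was used. A spot was called well above background by the scanner software. Of the 39 arrays, Krt18 was well above background on 33, Krt19 on 22, Msln on 12, Tcf21 and Krt8 on 7, Upk3b on 4, Bnc1 on 3 and Wt1 on 2. All 8 members were well above background on LFC Day 10 and on HFC Week 12, and on no other array. Array brightness differed widely. The 75th percentile ran from 18.1 to 3974 intensity units. Between 31.2% and 98.0% of an array's spots were well above background, with 68.7% on LFC Day 10 and 91.6% on HFC Week 12. The software had marked 71.4% of the spots of HF20 Week 15 as uneven or outlying, among them every member's, and 18.6% of HF5 Week 12, where 3 members were left with a value. HFC Week 12 had 11.1% of its spots marked, none of them a member's.

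**Figure D1:**
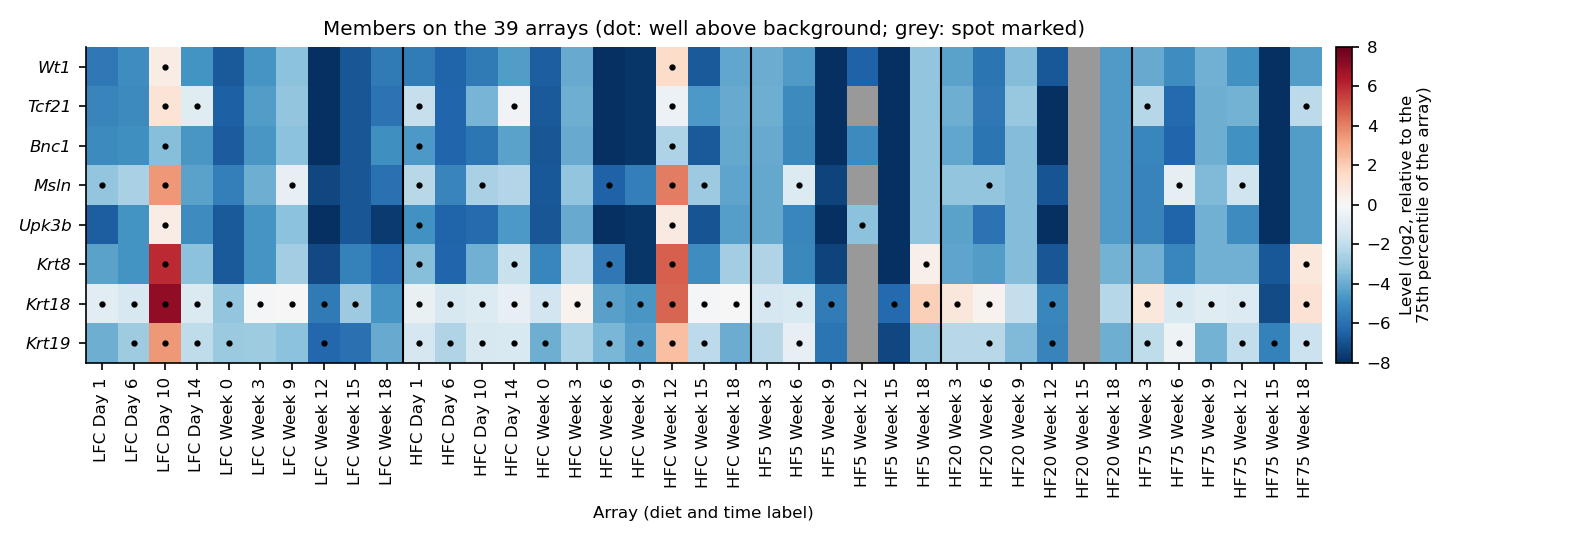
Level of each member (rows) on each array (columns, ordered by diet and time label), as log2 relative to the 75th percentile of the array; a dot marks a spot well above background and grey a marked spot. LFC Day 10 and HFC Week 12 are the columns with a dot in every row.

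Wt1, a zinc finger transcription factor of mesothelium and kidney, had a level of 0.57 on LFC Day 10 and 1.46 on HFC Week 12. It was not well above background on any of the other arrays. Its lowest value there was -9.11, its median -5.29 and its highest -3.15 (36 arrays). These levels are bounds set by each array's background, so against their mean Wt1 was at least 19.8-fold higher on LFC Day 10 and at least 36.6-fold higher on HFC Week 12. For such a bound, each dim array was given the higher of its own signal and the lowest signal that was well above background on it. Wt1 was thus the member that was measured on these arrays alone.

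Tcf21, a helix-loop-helix factor of visceral mesenchyme and of white fat precursors, was at 1.07 on LFC Day 10 and at -0.49 on HFC Week 12. The other 35 arrays ran from -8.99 to -0.30 with a median of -4.62, and 5 of them were well above background. These were HFC Day 14 (-0.30), LFC Day 14 (-0.94), HFC Day 1 (-1.83), HF75 Week 18 (-2.10) and HF75 Week 3 (-2.27). Tcf21 on HFC Week 12 lay below HFC Day 14, so this gene did not set the Week 12 array apart. Both Day 14 arrays had a higher Tcf21 level than the Week 0 arrays, where it was not well above background, although the methods count weeks from Day 14.

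Bnc1, a zinc finger protein of basal keratinocytes and mesothelium, was dim throughout. It was at -3.41 on LFC Day 10 and at -2.49 on HFC Week 12, and well above background also on HFC Day 1 (-4.58). The highest of the other 36 arrays was -3.15 on HF5 Week 18, where the signal was not well above background and where Wt1, Tcf21, Upk3b, Msln and Krt19 had the same value. Against the others Bnc1 was at least 1.23-fold higher on LFC Day 10 and at least 2.32-fold higher on HFC Week 12. Its elevation could therefore not be separated from the background of the dimmer arrays.

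Msln, the lipid-anchored surface glycoprotein mesothelin, had a level of 3.46 on LFC Day 10 and 4.08 on HFC Week 12. The other 35 arrays ran from -8.70 to -0.68 with a median of -4.07, and 10 were well above background. The highest were LFC Week 9 (-0.68), HF75 Week 6 (-0.73) and HF5 Week 6 (-1.10). LFC Day 10 was 17.7-fold and HFC Week 12 27.2-fold above LFC Week 9.

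Upk3b, uroplakin 3B, a membrane protein of urothelium and mesothelium, was at 0.58 on LFC Day 10 and at 0.75 on HFC Week 12. It was well above background on 2 further arrays, HF5 Week 12 (-3.30) and HFC Day 1 (-4.85). The range on the other 36 arrays was -9.25 to -3.15, with a median of -5.30.

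Krt18, the type I partner of Krt8, was at 7.07 on LFC Day 10 and at 4.68 on HFC Week 12. It was measured on most arrays, with 31 of the other 35 well above background, a range of -7.15 to 1.88 and a median of -1.19. Krt8, the type II keratin of simple epithelia, was at 5.99 and 4.76 on the same arrays, and ran from -8.80 to 0.87 elsewhere (median -4.49, 5 of 35 arrays well above background). Its other probe gave 6.46 and 4.47, and its highest value elsewhere was 0.69. Krt19, a small type I keratin of simple and ductal epithelia, was at 3.48 and 2.40, against -7.29 to -0.42 elsewhere (median -2.996, 20 of 35 arrays well above background). All 3 keratins and Tcf21 were higher on LFC Day 10 than on HFC Week 12, by 1.07 (Krt19) to 2.40 (Krt18) on the log2 scale. Wt1, Upk3b, Msln and Bnc1 were higher on HFC Week 12, by 0.17 to 0.92. With 1 array each, these differences have no replicate check.

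**Figure D2:**
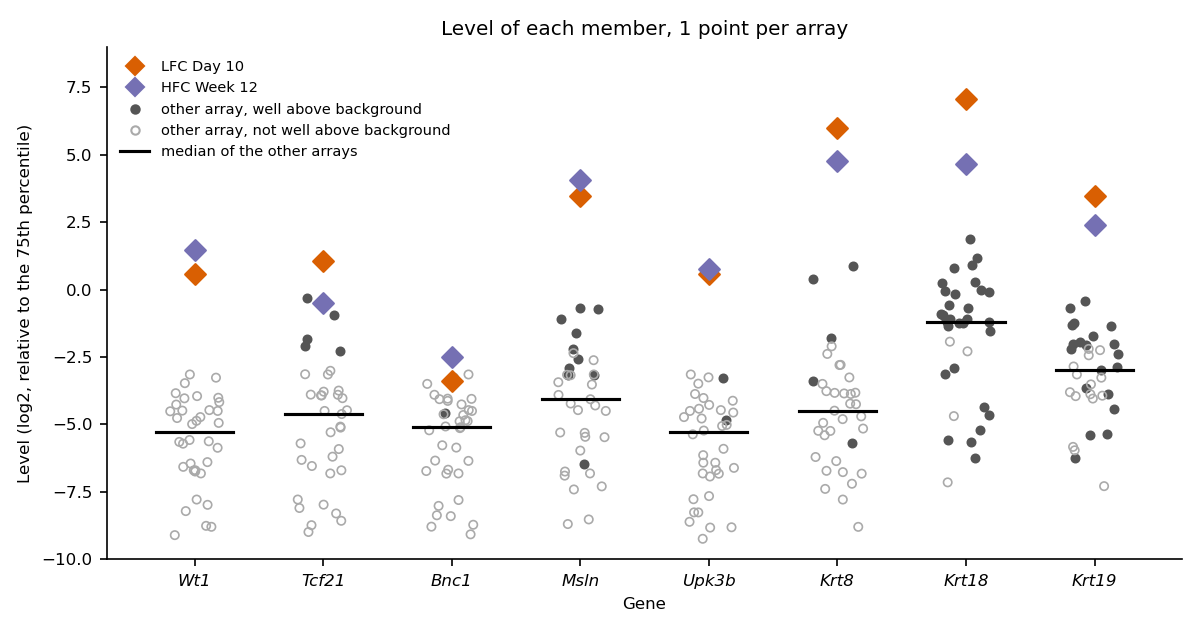
Level of each member on every array with a value, 1 point per array (log2, relative to the 75th percentile); diamonds are LFC Day 10 and HFC Week 12, filled circles other arrays well above background, open circles other arrays that were not, and the line is the median of the other arrays. For Krt18 the diamonds stand at 7.07 and 4.68 over a cloud that is mostly filled, and for Wt1 every other circle is open.

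The keratin probes are shown because Krt8 had 2 probes and Krt8 and Krt18 form 1 filament pair. The first 30 of the 60 bases of each probe, 5′ to 3′, are given, with the longest run that a Krt8 and the Krt18 probe share in capitals (11 bases).
Krt8, brighter probe: ccgaggatcagccctaatcctctggccaac
Krt8, other probe: TGGTGTCCGAGtcttctgatgtcgtgtcca
Krt18: ggatggcagagTGGTGTCCGAGactaatga
Krt19: acggaggcccgttatggagtccagctgtca
The brighter Krt8 probe shared no run longer than 5 bases with the Krt18 probe, and both Krt8 probes were high on the same arrays. The series annotation ties each Krt8 probe to further predicted transcripts besides the Krt8 mRNA, so signal from a near-identical copy is not separated from Krt8. The annotation places Krt8 and Krt18 on chromosome 15 (15 F3), Krt19 on 11 (11 D), Wt1 on 2 (2 E), Tcf21 on 10 (10 A3), Upk3b on 5 (5 G2), Msln on 17 (17 A3.3) and Bnc1 on 7 (7 D3), and gives no base positions for these probes.

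RefSeq promoters (GRCm38.p6, 250 bases before to 50 after the start) were at hand for 5 of the 8 members. They are shown since these genes were high together on the same arrays. Each line runs 5′ to 3′ from 100 bases before the start to the tenth base of the transcript, with matches to the searched motifs in capitals.
Krt8 (chr15:102004333-102004442, minus strand): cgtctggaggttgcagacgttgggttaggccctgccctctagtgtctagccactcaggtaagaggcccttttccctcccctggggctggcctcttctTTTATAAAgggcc
Krt18 (chr15:102028116-102028225, plus strand): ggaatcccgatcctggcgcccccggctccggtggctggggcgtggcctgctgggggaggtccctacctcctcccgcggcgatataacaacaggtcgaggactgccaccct
Upk3b (chr5:136038396-136038505, plus strand): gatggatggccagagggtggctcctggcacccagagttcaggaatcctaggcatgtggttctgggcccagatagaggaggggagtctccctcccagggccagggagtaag
Tcf21 (chr10:22820134-22820243, minus strand): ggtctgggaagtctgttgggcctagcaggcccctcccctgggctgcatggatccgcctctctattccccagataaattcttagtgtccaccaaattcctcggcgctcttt
Bnc1 (chr7:81992290-81992399, minus strand): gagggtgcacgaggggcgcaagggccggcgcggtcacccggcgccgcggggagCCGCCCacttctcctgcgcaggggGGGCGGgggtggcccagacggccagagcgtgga
The motifs searched on both strands of the whole 300-base windows were TATAAA (the TATA box), GGGCGG (the GC box), CAGCTG (an E-box) and GCGNGGGCG (bound by Wt1 and Egr proteins). They occur in 13.6%, 35.7%, 16.3% and 5.55% of the 32851 promoters in the table. Krt8 held TATAAA at the annotated start, read on both strands in overlapping places, and CAGCTG at bases 41 to 46 of the transcript. Bnc1 held 6 copies of GGGCGG and its window was 83.3% G and C, against a median of 52.7% over all windows. None of these letters was found in the windows of Krt18, Upk3b and Tcf21, which says nothing of the factors that bind there. In RefSeq, Krt8 and Krt18 are neighbours with 2 predicted genes between them.

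The size of the elevation was next set against all genes. On LFC Day 10 the members lay 1.69 (Bnc1) to 10.49 (Krt8) above the median of the other arrays on the log2 scale, with a median of 6.18, while the median over all genes was -0.36. On HFC Week 12 they lay 2.60 (Bnc1) to 9.25 (Krt8) above, with a median of 5.96, and the median over all genes was -0.10. A gene was counted as elevated when it was well above background and at least 4-fold over the median of the other arrays. On LFC Day 10, 7 of the 8 members met this, with Bnc1 the exception, where 6.16% of 26391 genes did. On HFC Week 12 it was met by the same 7 and by Bnc1, where 4.88% of genes met it. For Bnc1 the median was set by arrays at background, and its bound of 2.32-fold there did not reach 4-fold. Both conditions held for 7 members and for 2.49% of genes. Since the members were picked from these arrays, nothing is read from these shares. In bulk RNA, more cells of a type and more RNA per cell cannot be told apart.

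Each array was also set against those of the same time label, 1 array against 1 and without a test. At Day 10 both arrays were scanned on the same date, on different slides. Krt8 was at 5.99 in LFC and at -3.83 in HFC, where it was not well above background, a difference of at least 906-fold. Krt18 was at 7.07 in LFC and at -1.07 in HFC (283-fold). Msln was at 3.46 and -2.59 (66.6-fold), and Krt19 at 3.48 and -1.31 (27.6-fold). These 3 genes were well above background on both arrays. For Tcf21, Upk3b and Wt1 the HFC array gave only a bound, and LFC was at least 28.2-fold, 21.3-fold and 21.2-fold higher. For Bnc1 the bound was 1.34-fold.

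At Week 12 all 5 diets were scanned on the same date. Krt18 was at 4.68 in HFC and at -5.67, -5.21 and -1.11 in LFC, HF20 and HF75, well above background on each. Krt19 was at 2.40 in HFC and at -6.26, -5.37 and -1.94 in those groups, again measured on each. Msln was at 4.08 in HFC and at -1.61 in HF75 (51.7-fold), and was not well above background in LFC and HF20, where the bounds were 2156-fold and 1442-fold. Wt1 was not well above background in any of the other 4 groups. Its lowest bound was 19.1-fold, against HF75, and its highest 350-fold, against LFC. In HF5 only Upk3b was well above background with an unmarked spot, at -3.30, against 0.75 in HFC (16.5-fold). The 75th percentile was 65.9 intensity units on HF75 Week 12 and 1289 on LFC Week 12. The reach below the 75th percentile thus differed between these arrays, and the bounds follow that reach. The LFC and HF20 arrays are titled BA, and those of HFC, HF5 and HF75 B-A. By the 4-fold rule, 2 of 8 listed fat cell genes were elevated on LFC, 4 of 8 on HF20 and 0 of 8 on HF75. For listed brown fat genes it was 2, 3 and 0 of 11, and over all genes 3.88%, 3.79% and 6.44%. Whether the make-up of the samples bears on these differences was not tested. The high array was of the low fat diet at Day 10 and of the high fat diet at Week 12.

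Traces on the other 37 arrays involved few members at a time. Of these arrays, 4 had no member well above background, 11 had 1, 10 had 2, 8 had 3 and 3 had 4. HF20 Week 15 is among the 4 because its member spots were all marked. The exception was HFC Day 1 with 7 members, all but Wt1, but 90.1% of all its spots were well above background, and the levels were low, from -4.85 (Upk3b) to -0.58 (Krt18). By the 4-fold rule, 12 arrays had at least 1 member elevated and none had more than 3. Over all genes, 0.707% to 17.3% met the rule on these 37 arrays, with a median of 2.7%. Whether the members met it more often than other genes was not tested.

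Krt8 and Krt18 were elevated together on HF5 Week 18 (0.40 and 1.88) and HF75 Week 18 (0.87 and 1.18). Both arrays were dim, with a 75th percentile of 24.3 and 44.7 intensity units. Krt8 and Krt18 had intensities of 32.0 and 89.0 on HF5 Week 18, and of 81.6 and 101 on HF75 Week 18. These levels thus rest on a low scaling value. On HF5 Week 18 the other 6 members were not well above background, and 1.51% of genes met the 4-fold rule, while on HF75 Week 18 Tcf21 also met it, with 13.3% of genes. Msln and Krt19 were elevated together on HF5 Week 6 (-1.10 and -0.68) and HF75 Week 6 (-0.73 and -0.42), where 1.77% and 1.75% of genes met the rule. The keratin pair of Week 18 and the Msln and Krt19 pair of Week 6 were thus seen on different arrays, each in the lowest and the highest KAL dose. They were noticed after the values were seen, and the HF20 arrays of these weeks were lower: Krt18 and Krt8 were not well above background on HF20 Week 18, and Msln was at -3.15 on HF20 Week 6. HFC Day 14 had Tcf21 and Krt8 elevated, where 17.3% of genes were, the highest share of any of the 37 arrays.

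Whether the diets differed in the members apart from LFC Day 10 and HFC Week 12 was tested with limma on the remaining arrays, with the time label as a block. Only probes that were well above background on 6 or more arrays entered the fits, LFC Day 10 and HFC Week 12 counted. Msln, Krt18 and Krt19 passed on the other arrays by themselves. Tcf21 and Krt8 were well above background on 5 of the others and passed only through the pair they were picked from, so their differences are not described here. Wt1, Upk3b and Bnc1 did not pass. With no filter all 8 entered and none was called in any comparison. The member values of HF20 Week 15, and those of Msln, Krt18 and Krt19 on HF5 Week 12, are missing from these fits because the spots were marked. None of the 3 was called between HFC and LFC (limma, adjusted p 1.00 for each). The differences were -0.14 for Msln (SE 0.98), 0.50 for Krt18 (SE 1.01) and 0.66 for Krt19 (SE 0.60). The same test called 0 of 31718 probes (0.0%), with 746 at an unadjusted p under 0.05.

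No member was called between a KAL group and HFC either. Of 31718 probes, 0 were called for HF5 (0.0%), HF20 (0.0%) or HF75 (0.0%), and 336, 620 and 1036 had an unadjusted p under 0.05. In HF75, Krt19 had a difference of 0.94 (SE 0.72), Krt18 of 0.73 (SE 1.20) and Msln of 0.64 (SE 1.17), each with an adjusted p of 0.994. With array weights in limma, Krt18 turned to -0.39 and Msln to -0.52. In HF5, Krt18 was at -0.75 (SE 1.25), Krt19 at -0.55 (SE 0.75) and Msln at -0.38 (SE 1.22), and without the Week 15 arrays these turned to 0.45, 0.42 and 0.71. In HF20 the 3 ran from -0.29 (Krt19, SE 0.77) to 0.11 (Krt18, SE 1.29). Standard errors of 0.60 to 1.29 on the log2 scale leave room for differences of several fold in either direction.

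**Figure D3:**
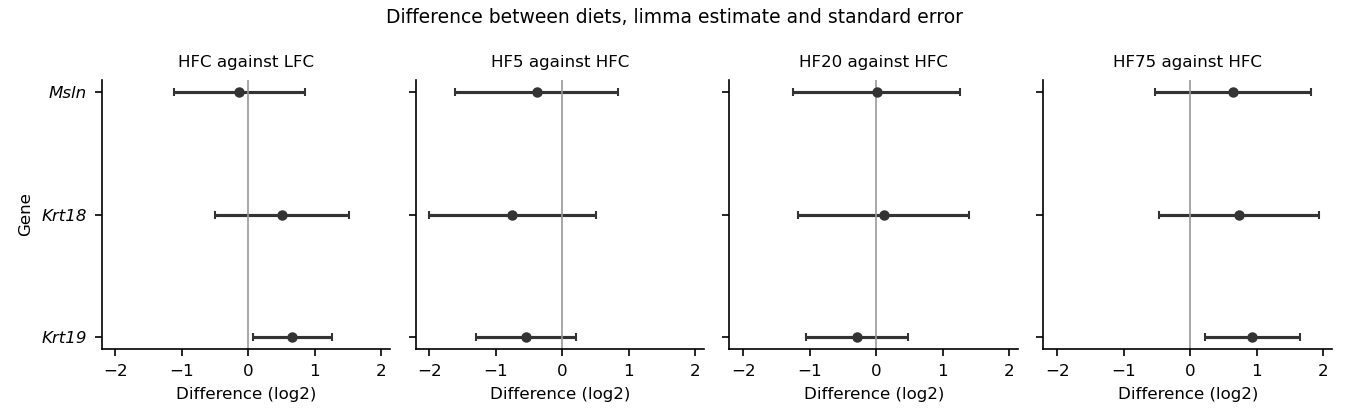
Difference between diets in log2 for Msln, Krt18 and Krt19, from limma without the LFC Day 10 and HFC Week 12 arrays; points are estimates and bars 1 standard error. The error bars of Msln and Krt18 cross 0 in every panel, and no gene passed the test in any panel.

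Over time in LFC and HFC, the slope over the log2 of the days on the diet was -0.31 for Msln, -0.28 for Krt18 and -0.30 for Krt19 per doubling (SE 0.18, 0.18 and 0.12). None was called, and Krt19 had an adjusted p of 0.264. Again 0 of 31718 probes were called (0.0%), with 4508 at an unadjusted p under 0.05.

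The genes most like the members were ranked by the lower of their elevations on LFC Day 10 and HFC Week 12, over 18991 genes well above background on both. For a gene that is not well above background on most other arrays the median is set by background, so this order is approximate and the members' own places in it are not given. The 10 other genes at the top were Akr1b7, Calml3, Spink8, Ccdc153, Mmp7, Crisp1, Cuzd1, 1700011H14Rik, Dynlrb2 and 1600029D21Rik. Akr1b7, an aldo-keto reductase first described in the vas deferens, came first, at 9.98 above the median of the other arrays on LFC Day 10 and 9.38 on HFC Week 12. Crisp1, a protein that epididymal epithelium secretes onto sperm, was 7.73 and 8.80 above. Mmp7, the epithelial metalloproteinase matrilysin, was 8.46 and 7.92 above. Calml3, a calmodulin-like protein of epithelia, was 8.58 and 8.53 above. Since these 10 genes were ranked on the same arrays, nothing is read from their height there. By the 4-fold rule, normexp background correction (offset 50 intensity units) left 8 of the 10 on LFC Day 10 and all 10 on HFC Week 12. Their median elevation was then 3.11 and 3.80, in place of 8.43 and 8.19.

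Other mesothelial genes moved the same way in part. Of 22 listed genes 21 were on the array, and 10 of these were elevated on both arrays: Rspo1, Muc16, Nkain4, Upk1b, Krt7, Aldh1a2, Gpm6a, Krt14, Lrrn4 and Dmkn. Some other array was higher than both for Krt7 and Krt14, higher than LFC Day 10 for Gpm6a and higher than HFC Week 12 for Lrrn4. Muc16, the membrane mucin known as CA125, was 5.43 and 6.53 above the median of the other arrays, and it was well above background on 2 of those. Rspo1, a secreted activator of Wnt signalling, was 6.30 and 5.47 above. Aldh1a2, which makes retinoic acid, was 3.86 and 4.44 above. Efemp1 and Igfbp6 met the rule on HFC Week 12 only. The median over the list was 1.80 and 2.43. Calb2, encoding calretinin, a protein commonly used to identify mesothelium, was not well above background on either array, and neither Gata4 nor Itln1 was on LFC Day 10.

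Of the 6 listed genes of visceral fat, Agt, the angiotensinogen gene, was the only one elevated on both arrays (4.55 and 3.63 above). Nr2f1 was not well above background on either, and Lep, encoding leptin, was at -0.04 and 0.99 relative to the median of the other arrays. Thus 5 of the 6 listed genes were elevated on neither array, and the median over the list was -0.15 and -0.003. Wt1 and Tcf21 are also tied to visceral fat, but they were picked on these arrays and are not counted here.

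Genes of other epithelia were elevated too. Among 7 general epithelial genes measured on both arrays, all 7 were elevated on LFC Day 10 and 5 on HFC Week 12. These 5 were Epcam, the epithelial adhesion molecule (5.88 and 5.25 above), Cldn3, Cldn4, Cldn7 (7.17 and 5.23 above) and Spint1. The median level of the epithelial list was 0.51 on LFC Day 10 and -0.29 on HFC Week 12, against -6.86 to 1.36 on the other arrays. Of 9 genes of the epididymis measured on both, 9 were elevated on LFC Day 10 and 6 on HFC Week 12. Besides Crisp1, these were Lcn5, Adam7, Cst8, Cst11 and Gpx5. Gpx5, an epididymal glutathione peroxidase, had a level of 5.67 on LFC Day 10 and -1.41 on HFC Week 12, and at most -0.37 on any other array. The median over the epididymis list was 6.71 and 2.88 above the other arrays. On HFC Week 12 it turned to -1.26 when normexp replaced the scanner's background correction, and the median over all probes moved to -1.48 there. Normexp was run with an offset of 50 intensity units added, and the 75th percentile of the dimmest array was 18.1 units. The median level of the epididymis list was 1.55 on LFC Day 10 and -2.45 on HFC Week 12, against -8.74 to -2.68 elsewhere. Crisp1 was higher on HFC Week 12 (3.39) than on LFC Day 10 (2.32), the opposite of Gpx5. The methods of the study list cells of epididymal fat among its other samples. The part of epididymal or other epithelial RNA in the members' levels was not tested.

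Beyond Krt8, Krt18 and Krt19, the array held 44 keratin genes, 30 of them measured on both arrays. Of these, 5 were elevated on both: Krt2, Krt7, Krt14, Krt15 and Krt20. Some other array was higher than both for Krt2 (up to 5.08), Krt7 (1.99) and Krt14 (1.64), and higher than HFC Week 12 for Krt15. Krt5 was elevated on LFC Day 10 (3.93 above). Krt20, a keratin of intestinal and urothelial lining, was 5.42 and 4.84 above. The median over the other keratins was -1.28 and -0.24, and its sign depended on the scaling on both arrays. The elevation was thus found in a few keratins and not over the family.

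Part of the brown fat list was low where the members were high. Ucp1, the uncoupling protein that defines brown fat, had levels of -3.16 on LFC Day 10 and -3.18 on HFC Week 12, against 1.48 to 8.82 on the other 37 arrays. It was still well above background on all 39. Of the 11 genes listed for brown and dorsal fat, 7 were at least 4-fold lower on LFC Day 10. On HFC Week 12 it was 7 of the 10 with a value. The share of all genes that were 4-fold lower was not counted. Of the 44 other keratins, 12 were so on LFC Day 10, and 1 of the 30 with a value on HFC Week 12. For the 10 brown fat genes measured on both arrays, the median on LFC Day 10 was -3.50, and -0.16 with normexp. On HFC Week 12 it was -2.71, and -2.44 with normexp. With normexp the median over all probes was 0.43 on LFC Day 10 and -1.48 on HFC Week 12. Cox7a1, a respiratory chain subunit rich in brown fat, was at -4.78 and -5.79 relative to the median of the other arrays on the log2 scale. Zic1 and Lhx8, transcription factors of dorsal brown fat, were not well above background on LFC Day 10. Other genes of the list were well above background on both arrays and not 4-fold lower. Prdm16, a regulator of the brown fat programme, was at -0.36 and -1.05 relative to that median, Ebf2 at -0.38 and 0.50, and Mpzl2 (listed as Eva1) at 1.62 and 0.98. The median level of 8 genes of fat cells in general was 3.67 and 2.38, against 1.86 to 7.002 on the other arrays. None of these 8 was 4-fold lower on LFC Day 10, while 4 were on HFC Week 12: Plin1 (-2.67), Fabp4 (-2.96), Pparg (-2.64) and Lipe (-2.52).

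Macrophage genes differed between the arrays. Of 10 listed genes, Cd14 was elevated on LFC Day 10, while 7 were on HFC Week 12. Csf1r, the receptor that macrophages need to survive, had levels of 1.03 and 2.92, against -1.40 to 2.004 elsewhere. Cd68, a lysosomal protein of macrophages, had levels of -0.77 and 2.35, against -2.40 to 1.89 elsewhere. The median level of the list was -0.43 on LFC Day 10 and 2.57 on HFC Week 12, with -1.40 to 1.94 on the other arrays. The members were therefore high with the macrophage list within the range of the other arrays on LFC Day 10 and above that range on HFC Week 12. Genes of pancreatic acini and of milk were elevated on both arrays in 0 of 5 and 0 of 6 cases. No gene of any list was called by limma in the comparisons of diets or over time on the remaining arrays.

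**Figure D4:**
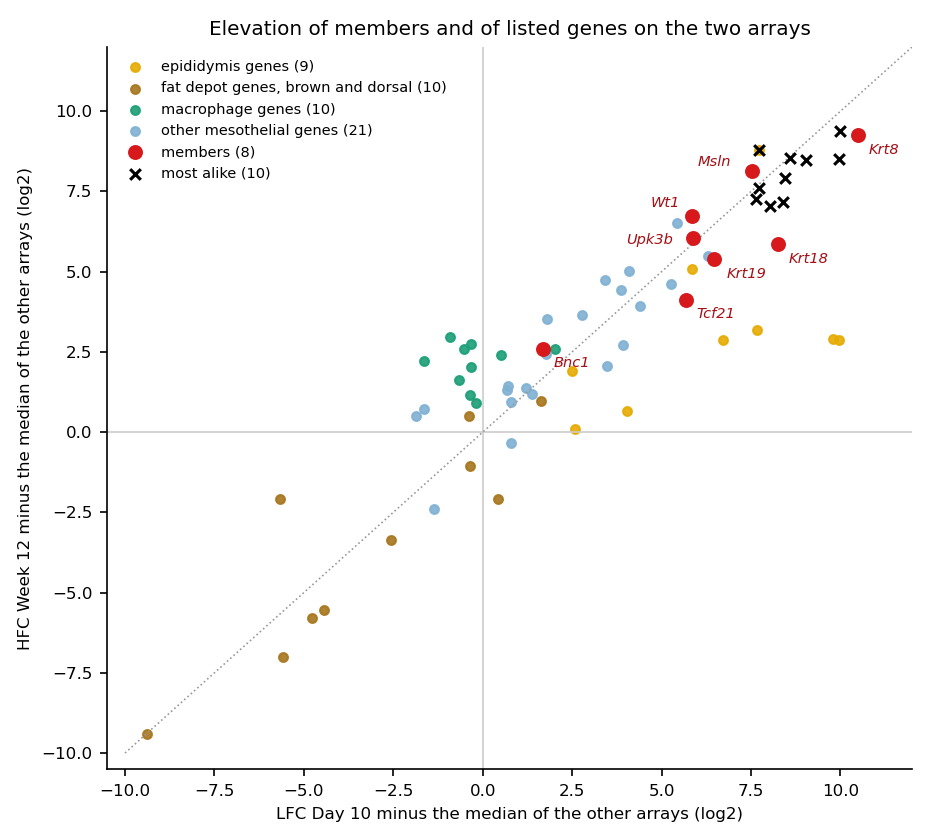
Elevation over the median of the other arrays (log2) on LFC Day 10 (x) and HFC Week 12 (y), 1 point per gene, for the members, the 10 genes most like them and 4 gene lists; the dotted line marks equal elevation. The members and most listed mesothelial genes lie up and to the right, and most brown fat genes down and to the left. Macrophage genes lie farther along y than x, and most epididymis genes farther along x. With normexp background correction (offset 50) the epididymis median on y was -1.26, and that over all probes -1.48.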

How the data were processed

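RNA of brown fat stromal vascular cells was hybridised to 39 one-colour Agilent mouse arrays. The authors read the scans with Agilent Feature Extraction (version 9.1 per the labels), and the deposited scanner files hold a background-subtracted intensity per spot. The deposited series table holds the authors' log2 fold changes against 1 array of the time point. Those were not used, and the table served for gene symbols, chromosomes and probe sequences only. The number of arrays limits the precision.

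Marked spots (nonuniform or population outliers) and control spots were dropped, spots of a probe averaged, and log2 intensity was taken relative to the 75th percentile of the array (40628 probes). Samples were grouped by diet and time label as the labels give them. Tests used limma 3.58.1 in R 4.3.3 (lmFit, eBayes, two-sided, Benjamini-Hochberg over all probes, threshold 0.05) on the 37 arrays other than LFC Day 10 and HFC Week 12, with diet and time label as additive terms. The trend was fitted on 19 LFC and HFC arrays with diet as a covariate. Some arrays are titled BA or BAT and others B or B-A, unevenly over diets and times. This was not a term of any fit. Arrays of 1 diet carry different time labels, with Day 14 and Week 0 the same time, and are possibly pools. The p-values therefore measure the spread over time labels. Elevations carry no test. Figures were drawn with matplotlib 3.10.9 in Python 3.11.15. The fits were tested on simulated data.

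The 8 members, the gene lists and the comparisons were chosen with earlier results of these data known. Named are the members, the 10 genes most like them, and in each list the elevated genes or up to 4 of them. List genes were matched by symbol, or by Entrez ID through RefSeq synonyms. Alternatives were 4 other normalizations, centring on the mean, 2 other filters on dim probes and a further one added after seeing the data, array weights, scan date and slide as random blocks, fits without the time block, the methods' t-test and leaving out each time label. Scan date spans 18 dates and slide 36 slides. The labels give no shared replicate numbers. Time labels served as the block in place of them. The residuals of LFC and HFC arrays of the same time label correlated over 0.1 in 5 of 8 pairs (median 0.32). The correlation was below 0 at Week 9 (-0.51) and Week 18 (-0.18).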

Additional observations from a re-analysis of the deposited data

Results flagged for a closer look

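Within each diet the highest and lowest array of every member were compared with the others by Dixon's criterion at 95%, in 40 groups; chance flags about 1 in 20 groups. LFC Day 10 and HFC Week 12 were left out, since the members were chosen on them. A total of 2 values stood apart. On HF75 Week 15, Wt1 at -8.22 (next lowest of 6 HF75 arrays -4.99) and Krt18 at -7.15 (next -1.20) were the lowest. Neither was well above background there.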

How the results depend on the processing

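No member was called in any comparison under any alternative, leaving out each time label included. Probes called stayed at 0 except for HFC against LFC with array weights (18) and for the trend over time with quantile normalization (7), normexp (1), the filter of 20 arrays (12), array weights (172) or a time label left out (0 to 56, with 56 without Week 15 and 2 without Day 1); the cause was not tested. Without the replicate block of time label, 0 probes and 0 members were called for each diet comparison, and the median differences over the members entered, Tcf21 and Krt8 among them, were 0.65, -0.94, -0.25 and 0.12. The methods' t-test also called 0 after adjustment. A filter of 6 of the 37 arrays of the fit, added after seeing the data, left Msln, Krt18 and Krt19 and 30626 probes and called 0 in each comparison. With normexp the members' median elevation was 1.77 on LFC Day 10 and 2.63 on HFC Week 12, where the median over all probes moved to 0.43 and -1.48, and Bnc1 turned to -1.30 on HFC Week 12. Against the other Week 12 arrays alone the median elevation of that array was 7.92. Counted by the 4-fold rule on both arrays, normexp left 4 members in place of 7, 2 other mesothelial genes in place of 10, 1 general epithelial gene in place of 5 and 0 epididymis genes in place of 6, and quantile normalization gave 8 members. The remaining alternatives gave 6.07 to 6.67 and 5.90 to 6.51. The median of LFC minus HFC at Day 10 was 6.14, and 2.07 with normexp. That of HFC minus LFC at Week 12 was 10.17, 7.36 with quantile normalization and 6.16 with normexp. The planned use of the deposited fold changes was not run, since they are the authors' own comparisons. Members at the background of dim arrays give bounds only. With 1 array per diet at Day 10 and at Week 12, no test of either array by itself is possible.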

Other observations

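With the marked spots kept, HF20 Week 15 had all 8 members well above background, as had 98.0% of its spots. Krt19 was then at 0.49, Msln at 0.39 and Tcf21 at 0.29, with Krt18 at -0.14, Krt8 at -0.10 and Wt1 at -3.41. On HF5 Week 12 the marked spots gave Krt18 0.18, Krt19 -0.13, Tcf21 -0.91 and Msln -1.06.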
